A study of Mus musculus with 6 samples.

Results

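The genes described here are the SLAM family of receptors and the small SH2 adaptors that carry their signals, read in natural killer (NK) cells of the mouse spleen. The members were chosen by gene name: the receptor genes Slamf6, Slamf7, Cd244a (also called Cd244), Cd84 and Ly9, the ligand gene Cd48, and the adaptor genes Sh2d1a, Sh2d1b1 and Sh2d1b2. Of these 9 genes, 8 are among the 8520 genes of the deposited table, and Sh2d1b2 was not analysed here. The mice, 20 untreated C57BL/6Ncr animals, were 6 to 8 weeks old. Their spleen NK cells were first enriched magnetically, then sorted by flow cytometry as CD3-negative and NK1.1-positive. One group, called Ly49G+ here, was positive for Ly49G and negative for Ly49C/I. The other, called Ly49I+, was positive for Ly49C/I and negative for Ly49G, with an antibody that binds both Ly49C and Ly49I. Each group had 3 libraries, and the comparison asks which genes are transcribed at different levels in these subsets. The labels call the libraries biological replicates but do not tie mice to libraries, and a p-value here reflects no more than how far such libraries vary.

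SLAM receptors sit on blood cells and bind other SLAM receptors on neighbouring blood cells. SLAMF6, SLAMF7, CD84 and LY9 each bind a copy of themselves on the opposing cell, whereas CD244 (2B4) binds CD48, a member of the same family that is anchored in the membrane by a lipid and has no cytoplasmic tail. Tyrosine motifs in the receptors' tails recruit SAP (from Sh2d1a), which brings in the kinase FYN, or EAT-2 (from Sh2d1b1 and Sh2d1b2), which couples the receptors to phospholipase C gamma. When these adaptors are missing, the same tails can recruit inhibitory phosphatases such as SHP-1 and SHIP-1. In NK cells the family is known for regulating responses to other blood cells and for a part in NK cell education.

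Of the 8 measured genes, 1 differed between the sorted populations. Slamf6 RNA was 2.87-fold higher in Ly49G+ than in Ly49I+ cells (95% interval 2.2 to 3.74). The other 7 genes did not pass the test, and their fitted differences ran from -0.19 (Cd48) to 0.24 (Sh2d1a) on the log2 scale. Over all genes 3.59% (306 of 8520) passed at an adjusted p of 0.05, with 1.82% higher in Ly49G+ cells and 1.77% higher in Ly49I+ cells, so 1 call among 8 genes is a small count in itself. The median log2 difference of Ly49G+ minus Ly49I+ was 0.10 over the 8 genes and -0.02 over all genes. Sequenced RNA of a sorted population cannot tell fewer cells of a kind from less RNA in each cell.

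Slamf6 encodes SLAMF6, known as Ly108 in mice and NTB-A in humans, a receptor that binds itself across cells and is also a familiar surface marker of TCF1-positive T cells. Its level was 23.7, 25.7 and 23.7 CPM (counts per 1000000 reads of the library) in Ly49G+ replicates 1, 2 and 3. In Ly49I+ replicates 1, 2 and 3 it was 7.58, 11.2 and 7.24 CPM. The groups lay far apart: the lowest Ly49G+ library held more than the highest Ly49I+ library, which was replicate 2. These levels rest on 796, 929 and 885 reads in Ly49G+ and on 262, 457 and 282 reads in Ly49I+ libraries. The group means were 24.4 ± 1.16 and 8.67 ± 2.19 CPM (SD, n = 3 each). The fitted log2 difference was 1.52 ± 0.17 (SE), with an adjusted p of 0.00123 in the limma test over all 8520 genes. Among the 155 genes called higher in Ly49G+ cells it had the 7th largest difference, and it ranked 28 of 8520 by p. Slamf6 reached 10 CPM in 3 Ly49G+ libraries and in 1 Ly49I+ library, while each of the other 7 genes reached it in every library. Its place in the deposited table, whose genes all reached 10 CPM in at least 2 libraries, therefore rested on the group in which it was higher.

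**Figure D1:**
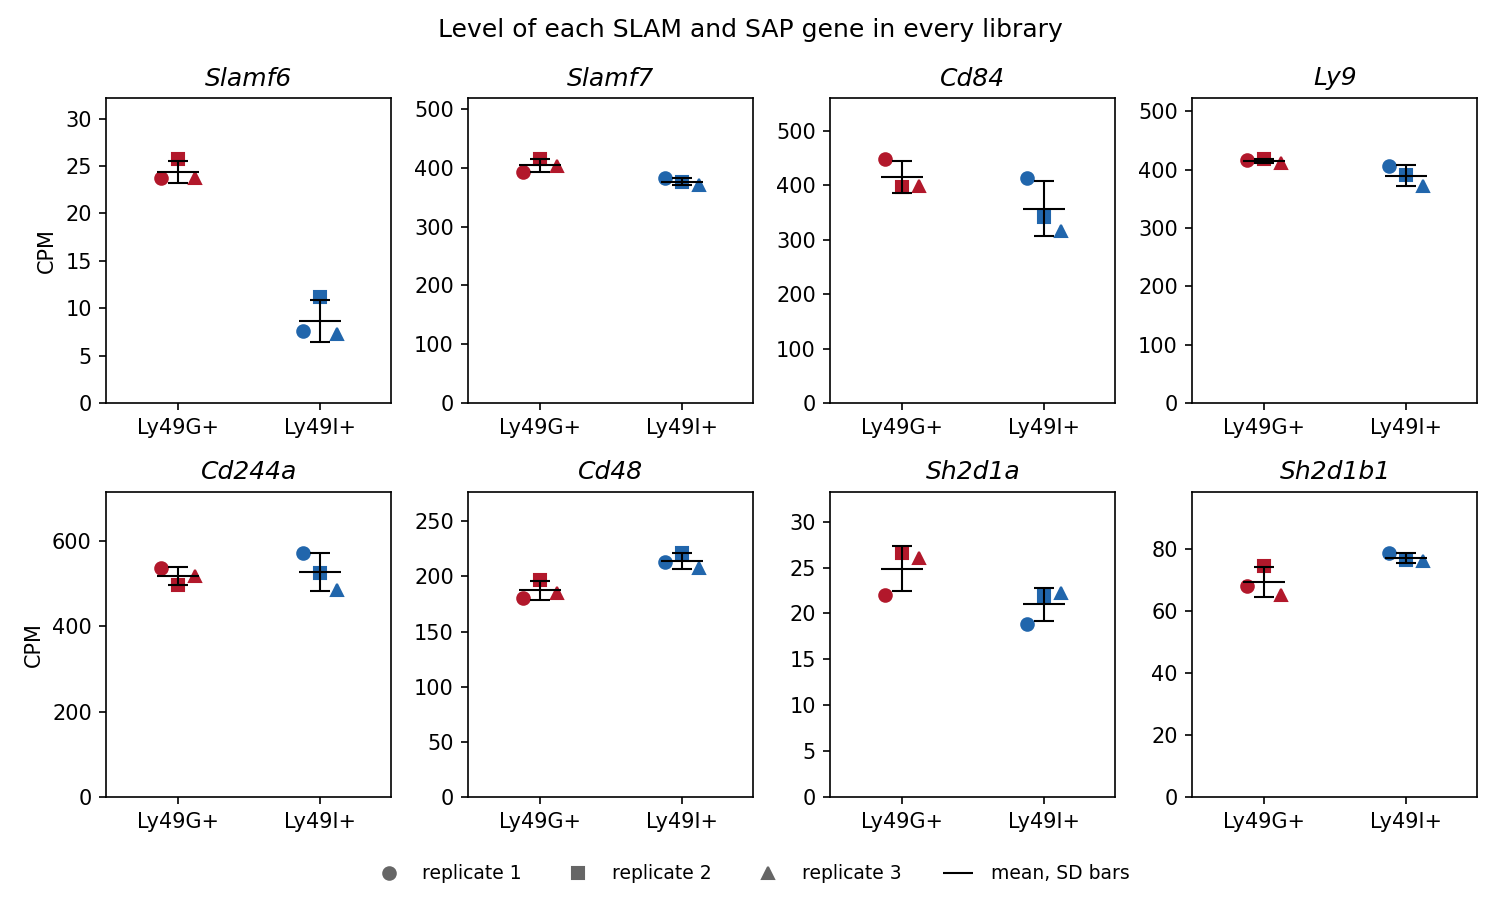
Level of each measured SLAM and SAP gene in CPM (vertical axes, each from 0), with 1 symbol per library (circle, square and triangle for replicates 1, 2 and 3), the group mean and SD bars, Ly49G+ in red and Ly49I+ in blue. Slamf6 stands at 23.7 to 25.7 CPM in Ly49G+ and 7.24 to 11.2 CPM in Ly49I+ libraries, while the groups of the other 7 genes lie close together or overlap.

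The genes of the family lie in a row on chromosome 1, and the nearest measured neighbour of Slamf6 is Cd84. Over all 6 libraries Cd84 passed the test with the replicate block, in the same direction, and not without it. In GRCm38.p6 coordinates Slamf6 (gene 30925) spans chr1:171917458-171948958 and Cd84 (gene 12523) ends 26.7 kb before it, at 171890718. Measured directly as the log2 level of Slamf6 minus that of Cd84 within each library, the gap was -4.24, -3.95 and -4.07 in Ly49G+ and -5.77, -4.93 and -5.44 in Ly49I+ libraries. The groups did not overlap, and the 2-sided exact permutation p was 0.10, the smallest that 3 libraries against 3 can give. Since Slamf6 was already the called gene and Cd84 differed little, this gap mostly restates the Slamf6 difference and is no separate support for it. The promoter windows of both genes, 250 bases before to 50 after the annotated start from RefSeq (build GRCm38.p6, plus strand, Slamf6 at chr1:171917212-171917511 and Cd84 at chr1:171839447-171839746), are printed 5′ to 3′ because these neighbours had fitted differences of 1.52 and 0.23. Capitals mark matches to any of 3 short motifs, searched on both strands.
Slamf6: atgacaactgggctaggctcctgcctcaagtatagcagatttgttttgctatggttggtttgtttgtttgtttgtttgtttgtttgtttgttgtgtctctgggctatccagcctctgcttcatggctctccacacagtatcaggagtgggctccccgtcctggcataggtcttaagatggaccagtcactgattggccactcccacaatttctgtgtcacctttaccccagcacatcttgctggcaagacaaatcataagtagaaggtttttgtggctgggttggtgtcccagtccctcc
Cd84: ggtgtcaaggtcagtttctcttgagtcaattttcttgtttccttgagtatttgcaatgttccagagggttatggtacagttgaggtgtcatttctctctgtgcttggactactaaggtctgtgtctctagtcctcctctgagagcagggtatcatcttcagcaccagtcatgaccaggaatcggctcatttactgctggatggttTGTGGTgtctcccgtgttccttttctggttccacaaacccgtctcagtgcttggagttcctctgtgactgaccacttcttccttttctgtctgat
The motifs were the RUNX core TGTGGT, the T-box core GGTGTG and the TCF/LEF core CTTTGA, named after families of transcription factors known in NK cells. Of 32851 promoter windows in the table, 16.8% held the RUNX letters, 19.0% the T-box letters and 16.0% the TCF/LEF letters on either strand. The Slamf6 window held 0 matches, and the Cd84 window held 1, to the RUNX letters, starting 45 bases before the start. Absence of a match says that these letters are not in this window. Promoter entries were found for 7 of the 9 genes. Around the 6 SLAM genes of chromosome 1 that were measured, from 100 kb before Cd244a to 100 kb after Slamf6, 1 other gene was in the table, Alyref2, with a log2 difference of -0.01 ± 0.16 (SE, adjusted p = 0.986).

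Among the other receptors that bind themselves, Slamf7, Cd84 and Ly9 were all abundant and none passed the test. Slamf7, which encodes the activating receptor CRACC, was at 393, 415 and 404 CPM in Ly49G+ and 383, 376 and 371 CPM in Ly49I+ libraries. Each Ly49G+ library lay above each Ly49I+ library, but by little: the log2 difference was 0.10 (95% interval -0.04 to 0.25, adjusted p = 0.396). Ly9, which encodes CD229, was at 416, 418 and 411 CPM in Ly49G+ and at 407, 391 and 372 CPM in Ly49I+ libraries. These groups too were separated by a narrow margin, with a log2 difference of 0.09 (95% interval -0.06 to 0.24, adjusted p = 0.46). The upper ends of the 95% intervals were 1.19-fold for Slamf7 and 1.18-fold for Ly9, below the lower end of 2.2-fold for Slamf6.

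Cd84 was the receptor whose call depended on how replicates were treated. Its level was 448, 398 and 400 CPM in Ly49G+ replicates 1, 2 and 3, and 413, 341 and 315 CPM in Ly49I+ replicates 1, 2 and 3. The groups overlapped, since Ly49I+ replicate 1 lay above Ly49G+ replicates 2 and 3, while in each same-numbered pair the Ly49G+ library was the higher. The log2 differences within those pairs were 0.12, 0.22 and 0.34. The log2 difference of the groups was 0.23 ± 0.10 (SE), with an adjusted p of 0.251, and of 0.0432 with the replicate number as a block, a fit in which 11.7% of all genes passed. Without Ly49I+ replicate 1 it was 0.34 ± 0.08 with an adjusted p of 0.0347.

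The receptor and ligand pair CD244 and CD48 did not pass either. Cd244a, with the highest CPM of the 8 genes, was at 538, 497 and 519 CPM in Ly49G+ and 573, 524 and 486 CPM in Ly49I+ libraries. The libraries of both groups interleaved, and the log2 difference was -0.02 (95% interval -0.20 to 0.15, adjusted p = 0.887). Cd48 was at 180, 197 and 185 CPM in Ly49G+ and 214, 222 and 207 CPM in Ly49I+ libraries. Here each Ly49I+ library was above each Ly49G+ library. The log2 difference of -0.19 (95% interval -0.35 to -0.04, unadjusted p = 0.0203) had an adjusted p of 0.171, so it did not pass over all genes. As a difference within each library, the log2 level of Cd244a minus that of Cd48 was 1.58, 1.33 and 1.49 in Ly49G+ and 1.42, 1.24 and 1.23 in Ly49I+ libraries. The groups overlapped, with a difference of means of 0.17 and a 2-sided exact permutation p of 0.20 (n = 3 each).

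The adaptor genes pointed in opposite directions without passing the test. Sh2d1a, on the X chromosome, encodes SAP. It was at 22.0, 26.6 and 26.0 CPM in Ly49G+ and 18.9, 21.9 and 22.2 CPM in Ly49I+ libraries. The groups touched, since Ly49G+ replicate 1 lay just under Ly49I+ replicate 3, and the log2 difference was 0.24 (95% interval -0.02 to 0.51, adjusted p = 0.281). Sh2d1b1, which encodes EAT-2A, was at 68.3, 74.6 and 65.2 CPM in Ly49G+ and 78.9, 76.4 and 76.1 CPM in Ly49I+ libraries. All Ly49I+ libraries were higher than all Ly49G+ libraries, with a log2 difference of -0.16 (95% interval -0.33 to 0.02, adjusted p = 0.304).

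Set against each other within a library, the adaptors gave separated groups. The log2 level of Sh2d1b1 minus that of Sh2d1a was 1.63, 1.49 and 1.33 in Ly49G+ replicates 1, 2 and 3, and ran from 1.78 to 2.06 in the 3 Ly49I+ libraries. The means were 1.48 ± 0.15 and 1.88 ± 0.16 (SD, n = 3 each), a difference between the groups of -0.40, so the balance leaned more towards EAT-2A in Ly49I+ libraries. The 2-sided exact permutation p was 0.10, the smallest this design allows, and the measure was chosen after the values of both genes were seen. It was 1 of 3 such within-library differences examined, with Slamf6 against Cd84 and Cd244a against Cd48.

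The Sh2d1b1 reads could in part come from its neighbouring copy Sh2d1b2, which encodes EAT-2B. The coding sequences of both genes have 396 bases, of which 90.7% are identical in the GENCODE M21 transcripts, with a longest identical run of 154 bases. Of all windows of 100 bases (the read length) along the longest Sh2d1b1 transcript, 7.3% also occur in Sh2d1b2. Of the other measured members, 0 windows occur in a transcript of any other gene. Transcripts were searched in their own direction only, so overlaps on the opposite strand are not covered by these counts. The stretch of 90 coding bases with the most differences, coding positions 253 to 342 counted from the start codon, shows how such reads can be told apart (build GRCm38, plus strand, 5′ to 3′, Sh2d1b1 at chr1:170283189-170283278 and Sh2d1b2 at chr1:170250083-170250172). Capitals mark the 20 bases that differ.
Sh2d1b1: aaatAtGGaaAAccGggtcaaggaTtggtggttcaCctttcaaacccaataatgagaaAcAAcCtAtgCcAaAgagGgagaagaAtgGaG
Sh2d1b2: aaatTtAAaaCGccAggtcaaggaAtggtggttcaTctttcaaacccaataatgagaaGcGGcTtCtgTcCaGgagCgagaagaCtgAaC
The sources used here do not say how reads matching both genes were counted. Other overlaps of genes in the GENCODE M21 annotation are on the opposite strand for Cd244a with Ly9, Slamf6 with Gm37065, Slamf7 with Gm37787 and Sh2d1a with Tenm1. They are on the same strand for Slamf7 with Mir7683 and Cd48 with Gm37010, where strand cannot separate the reads. In the RefSeq coordinates of GRCm38.p6 Cd244a and Ly9 do not overlap, with 3.3 kb between them. The library kit keeps strand, but the sources do not say whether the counting used it.

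In all, 5 of the 8 genes had groups that did not overlap, 3 higher in Ly49G+ (Slamf6, Slamf7 and Ly9) and 2 higher in Ly49I+ (Cd48 and Sh2d1b1), against 25.8% of all genes in the table. Slamf7 and Ly9 had small differences and little spread: the SD of log2 values within groups was 0.032 for Slamf7, lower than in all but 1.17% of genes, and 0.047 for Ly9, lower than in all but 4.64%. Slamf6 was the opposite case, with an SD of 0.249, above that of 90.5% of genes, and its fitted difference was larger in size than that of 99.5% of genes. Of the other 7 members Sh2d1a ranked highest by size of difference, above 79.1% of genes, and Cd244a lowest, above 10.2%.

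**Figure D2:**
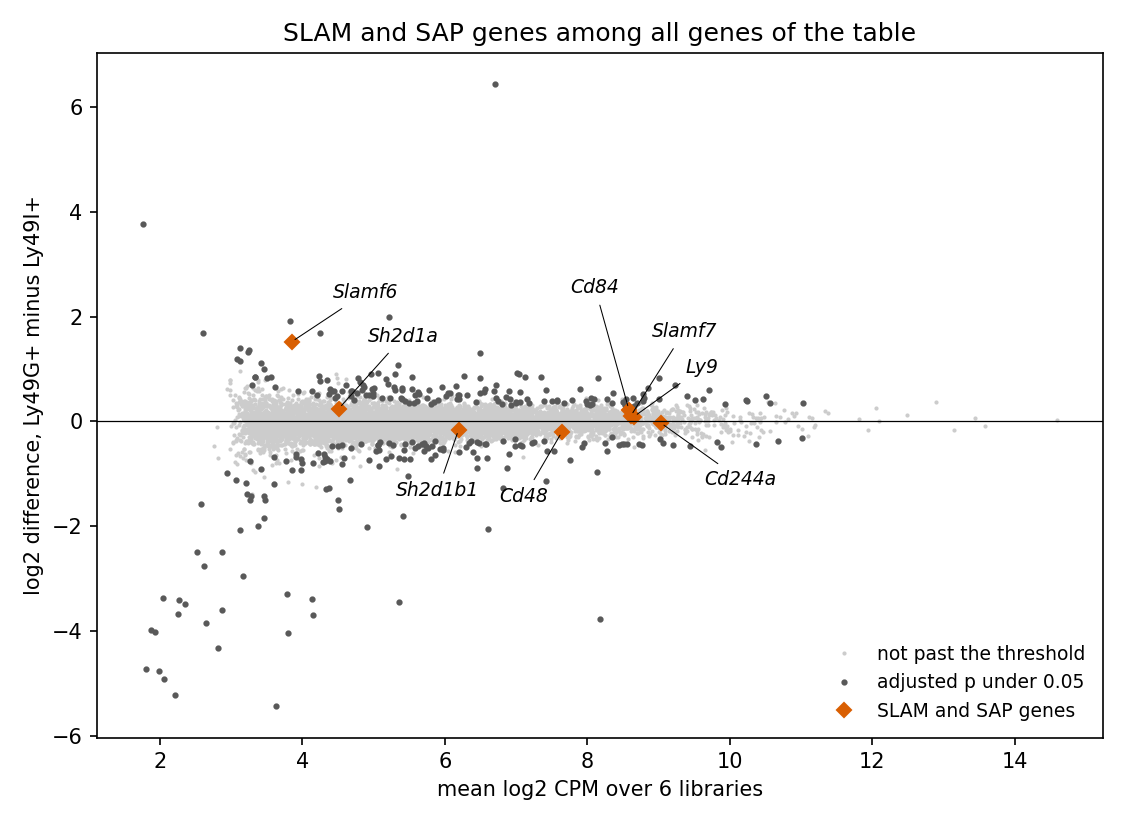
Log2 difference of Ly49G+ minus Ly49I+ (vertical axis) against the mean log2 CPM over 6 libraries (horizontal axis) for all 8520 genes, with the 306 called genes in dark grey and the SLAM and SAP genes as orange diamonds. Slamf6 stands out at 1.52 among genes of low level, and the other 7 members lie between -0.19 and 0.24.

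Levels of different genes were compared per length, as CPM per kilobase of the longest annotated transcript. In Ly49G+ cells the order was Ly9 (167 ± 1.54), Cd48 (158 ± 7.44), Cd244a (138 ± 5.39), Cd84 (121 ± 8.35), Slamf7 (102 ± 2.71), Sh2d1b1 (27.3 ± 1.88), Sh2d1a (20.3 ± 2.03) and Slamf6 (4.26 ± 0.203) (mean ± SD, n = 3). In Ly49I+ cells Cd48 came first (181 ± 5.96) and Ly9 second (157 ± 7.03), the rest kept their order, and Slamf6 was again last at 1.51 ± 0.382. Neighbours in this order whose libraries overlapped were Ly9 and Cd48 in Ly49G+ cells. In Ly49I+ cells they were Ly9 and Cd244a, and Cd84 and Slamf7. Of the summed level per length of the 5 receptor genes (Ly9, Cd244a, Cd84, Slamf7 and Slamf6), Slamf6 made up 0.761%, 0.855% and 0.789% in Ly49G+ replicates 1, 2 and 3, and 0.248%, 0.396% and 0.272% in Ly49I+ replicates 1, 2 and 3. So the gene that differed was by far the least abundant of the receptors in both populations, and the summed receptor levels of the groups overlapped, at 525 to 544 CPM per kilobase in Ly49G+ and 465 to 534 in Ly49I+ libraries. With the summed length of all annotated exons in place of the longest transcript, Cd48 was first in both groups, Slamf7 passed Cd84, and Slamf6 remained last at 2.25 and 0.80 CPM per kilobase.

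Other genes of SLAM signalling were listed with Cd2, further SLAM receptors and other SH2 adaptors, and none of those measured passed the test. Of the 45 listed genes, 36 were measured and 0 passed in either direction by limma. Over all genes 3.59% passed, a share at which few of 36 would. An unadjusted p under 0.05 in limma was reached by 5 of the 36 and by 19.8% of all genes. Their median log2 difference was -0.04, with a range of -0.49 to 0.24. Of 7 measured kinases, Fyn, the kinase that SAP recruits, had a log2 difference of 0.18 (95% interval 0.02 to 0.34, adjusted p = 0.208). Lck, a kinase of the same family, differed by 0.07 (-0.12 to 0.26) and Prkcq, which encodes protein kinase C theta, by 0.06 (-0.09 to 0.20). All 4 phosphatases were measured. Ptprc, which encodes CD45, differed by 0.13 (-0.06 to 0.33), Inpp5d, which encodes SHIP-1, by -0.13 (-0.30 to 0.04), and Ptpn6, which encodes SHP-1, by 0.20 (-0.02 to 0.42).

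Of the adaptors and effectors 0 of 21 passed the test, against 3.59% of all genes. The most abundant were the phosphatidylinositol 3-kinase genes Pik3r1 (log2 difference 0.12, 95% interval -0.03 to 0.27) and Pik3cd (-0.11, -0.32 to 0.11) and the SLP-76 gene Lcp2 (0.12, -0.03 to 0.28). With the replicate block, under which 11.7% of all genes passed, 2 of the 36 did, Plcg2 and Nck2, named here after their values were seen. Plcg2 encodes a phospholipase C gamma, and its level was 286, 284 and 298 CPM in Ly49G+ and 324, 368 and 360 CPM in Ly49I+ libraries. The groups did not overlap, with a log2 difference of -0.27 (-0.44 to -0.11) and an adjusted p of 0.072 without the block. The adaptor gene Nck2 differed by -0.49 (-0.79 to -0.19, adjusted p = 0.0783 without the block). Cd2, which encodes another receptor for CD48 in mice, differed by -0.04 (-0.23 to 0.15), and the other SH2 adaptor genes Sh2d2a, Sh2d3c and Sh2b3 by 0.12, -0.18 and -0.09, with 0 of 3 past the test. Slamf1, Slamf8 and Slamf9 were not analysed here.

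**Figure D3:**
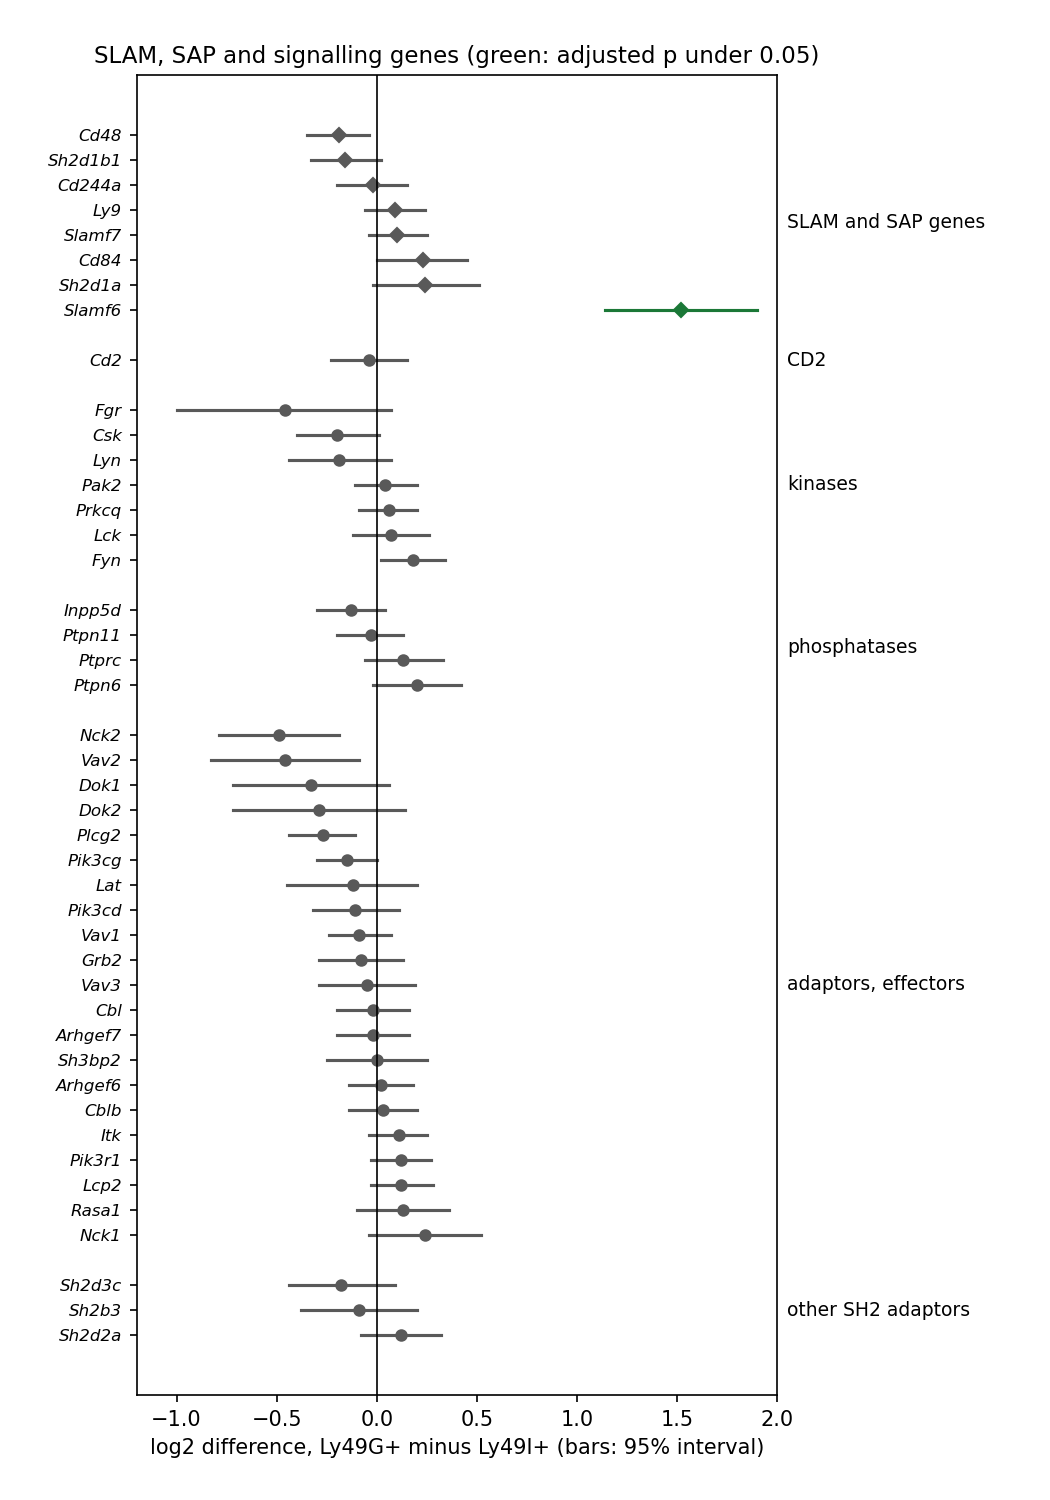
Log2 difference of Ly49G+ minus Ly49I+ with its 95% interval (horizontal axis) for the 8 measured SLAM and SAP genes (diamonds) and 36 genes of SLAM signalling (circles), by role. Slamf6, in green, is the gene past the adjusted p of 0.05, and the others have fitted differences between -0.49 and 0.24.

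SLAM genes are also expressed by T cells, B cells and myeloid cells, so markers of those cells were read in the same libraries. Of 12 T cell markers 7 were measured. Against 3.59% of all genes, 5 of those passed the test (Cd3d, Cd3e, Cd3g, Trac and Cd28), each higher in Ly49G+ cells. Of these, 3 (Cd3d, Cd3e and Trac) were under 10 CPM in each Ly49I+ library and, like Slamf6, were in the table through the Ly49G+ libraries. The summed level of the 7 was 364 to 433 CPM in Ly49G+ and 246 to 264 CPM in Ly49I+ libraries, a sum to which Trbc1, Trbc2 and Cd28 contributed most. For Cd3e, a defining T cell gene, Ly49G+ replicates 1, 2 and 3 held 9.27, 18.5 and 11.5 CPM, and Ly49I+ replicates 1, 2 and 3 held 0.592, 1.06 and 1.22 CPM. It thus shared the direction of Slamf6 and was highest in the same Ly49G+ library, replicate 2, although Slamf6 was nearly level within that group. Among Ly49I+ libraries Slamf6 was highest in replicate 2, but Cd3e was highest in replicate 3. There Cd3d was highest in replicate 1, and Cd3g, Trac and Cd28 were highest in replicate 2. The other T cell genes Cd4, Cd8a, Cd8b1, Cd5 and Cd6 were not analysed here. Of 12 NK identity genes, all measured, 4 passed the test. Eomes, a transcription factor of NK cells, was higher in Ly49G+ cells (log2 difference 0.39 ± 0.07, SE, adjusted p = 0.00893). The transcription factor gene Tbx21 (-0.42 ± 0.10, adjusted p = 0.0441) and the cytotoxic granule genes Prf1 (-0.49 ± 0.10, adjusted p = 0.0253) and Gzmb (-0.47 ± 0.07, adjusted p = 0.00585) were higher in Ly49I+ cells. The 8 others did not pass and differed in direction. Ncr1 was at 1906 to 2035 CPM in Ly49G+ and 2095 to 2229 CPM in Ly49I+ libraries. Its log2 difference was -0.14, beside -0.29 for Nkg7, -0.16 for Gzma, -0.03 for Klrb1c and -0.01 for Tyrobp. The differences of Klrk1 (0.16), Il2rb (0.08) and Klrd1 (0.06) were positive.

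Of 15 B cell markers 3 were measured. Against 3.59% of all genes, 1 of those passed, Cd22, higher in Ly49G+ cells. Its level was 41.7, 43.8 and 52.9 CPM in Ly49G+ and 20.4, 32.2 and 21.3 CPM in Ly49I+ libraries. Ighm and Igkc, which did not pass, differed in direction. The log2 difference was 0.45 ± 0.21 for Ighm (SE, adjusted p = 0.258) and -1.25 ± 0.68 for Igkc (SE, adjusted p = 0.325). The summed B cell level was 308 to 424 CPM in Ly49G+ and 193 to 427 CPM in Ly49I+ libraries, and Ly49I+ replicate 2 gave the highest value. Most of this sum was Ighm, at 261 to 336 CPM in Ly49G+ and 158 to 318 CPM in Ly49I+ libraries. Of 18 myeloid markers 11 were measured and 8 passed, all higher in Ly49I+. Of those 8, 7 were under 10 CPM in each Ly49G+ library, so they too were in the table through the group in which they were higher. The summed level of all 11 measured myeloid markers, called or not, was 1076 to 1193 CPM in Ly49G+ and 1174 to 2110 CPM in Ly49I+ libraries. It was again highest in Ly49I+ replicate 2. Itgax, which NK cells also express, gave 1037 to 1120 CPM of these sums in Ly49G+ and 827 to 946 CPM in Ly49I+ libraries. The defining monocyte gene Csf1r was at 1.53 to 5.94 CPM in Ly49G+ and 31.7 to 138 CPM in Ly49I+ libraries, opposite in direction to Slamf6. No measured marker of the 3 lists was at 0 in a whole group, and the lowest were Adgre4, Treml4 and Cd300ld in Ly49G+ libraries, at 0.401 to 1.34 CPM. Ly49I+ replicate 2 was also the Ly49I+ library with the most Slamf6. Without that library the Slamf6 log2 difference was 1.72 ± 0.15 (SE, adjusted p = 0.000361). The part of T cell, B cell or myeloid RNA in the Slamf6 levels was not tested.

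**Figure D4:**
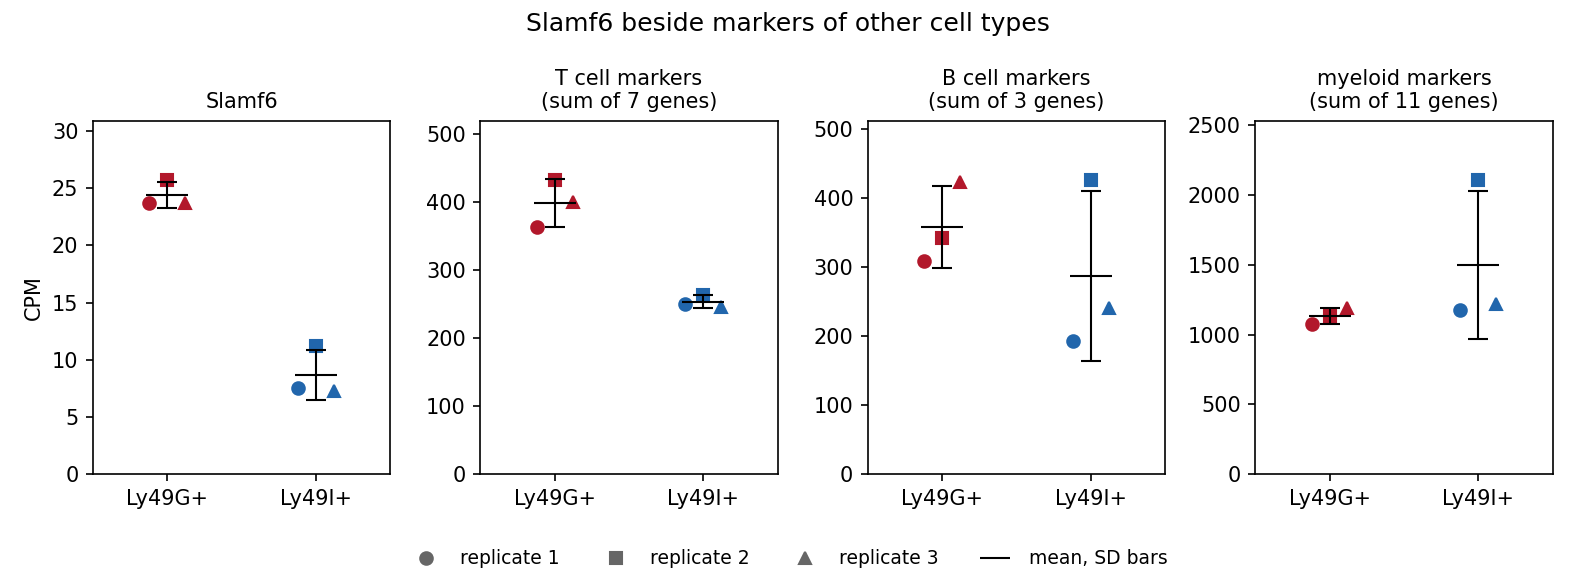
Slamf6 and the summed level of measured T cell, B cell and myeloid markers in CPM (vertical axes, each from 0), with 1 symbol per library, the group mean and SD bars, Ly49G+ in red and Ly49I+ in blue. The T cell sum shares the direction of Slamf6 (364 to 433 against 246 to 264 CPM). Trbc1, Trbc2 and Cd28 contributed most to it, and Trbc1 and Trbc2 did not pass the test. Ly49I+ replicate 2 (square) is the highest Ly49I+ library in all 4 panels.

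Over the 6 libraries the genes outside the family whose log2 level followed Slamf6 most closely were Pdk1 (Pearson r = 0.995), a gene without a name in the table used (gene number 100503283, r = 0.995), Frmd4b (r = 0.994) and Manea (r = 0.992). These values describe 6 libraries in 2 groups and mostly reflect the step between the groups. Pdk1, which encodes a kinase that restrains pyruvate dehydrogenase, was at 27.5, 26.9 and 26.0 CPM in Ly49G+ and 14.5, 17.2 and 14.6 CPM in Ly49I+ libraries. Its log2 difference was 0.80 ± 0.11 (SE, adjusted p = 0.00355). Frmd4b (0.50 ± 0.08, adjusted p = 0.00638) and Manea (0.34 ± 0.08, adjusted p = 0.0393) passed too, and the unnamed gene did not (0.64 ± 0.16, adjusted p = 0.0555). Since the genes were picked for following Slamf6 in these libraries, their direction and calls come with that choice.

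**Figure D5:**
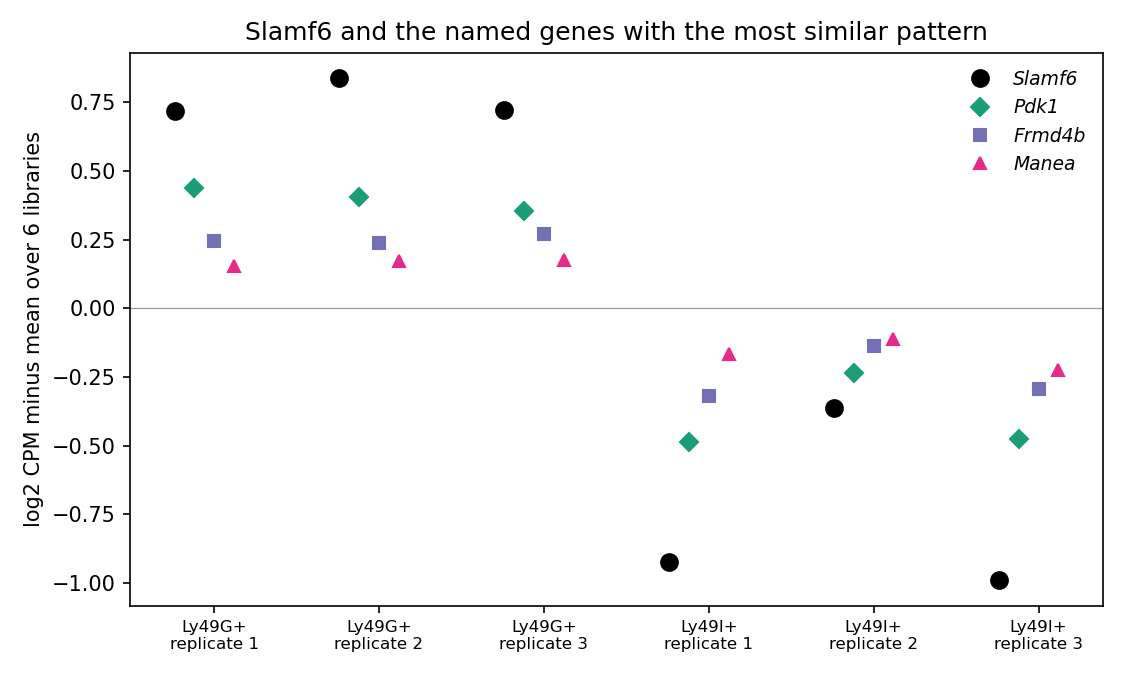
Log2 CPM minus the gene's mean over 6 libraries (vertical axis) in each library (horizontal axis) for Slamf6 and the 3 named genes among the 4 with the highest correlation to it. All 4 plotted genes step down from Ly49G+ to Ly49I+ libraries, and Slamf6 has the widest step, 1.52 on the log2 scale against 0.80 for Pdk1 and 0.34 for Manea.

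Within the family the levels followed each other unevenly over the 6 libraries. The closest pair was Cd84 and Ly9 (Pearson r = 0.92), followed by Cd48 with Sh2d1b1 (r = 0.89) and Slamf6 with Slamf7 (r = 0.88). Slamf6 ran opposite to Cd48 (r = -0.79) and Sh2d1b1 (r = -0.75), the members that were higher in each Ly49I+ library. These coefficients share libraries, depth and the step between the groups, and are given as a description.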

How the data were processed

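RNA was sequenced in 3 Ly49G+ and 3 Ly49I+ libraries. Per the labels' protocols, 0.4 µg of total RNA per library went into a stranded kit, with paired reads of 100 bases. The submitters' processing notes name CASAVA 1.8.2, STAR 2.3.0, limma and build mm10, and name no counter, annotation or gene filter. The authors deposited log2 CPM values for 8520 genes by NCBI gene number. Solving voom's formula (offsets of 0.5 read per gene and 1 read per library) gave whole reads for 100% of values within 0.001 read. The totals were 33599679 to 40892154 reads. For genes with many reads counting error is therefore small, and the spread between libraries limits precision. It is larger for genes with few reads, such as Cd3e in Ly49I+ libraries (20 to 47 reads), and the lowest value was 8 reads. Genes outside the table held 1.43% to 1.71% of reads.

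Groups were compared with limma 3.58.1 (R 4.3.3) on the deposited log2 values: 1 linear model for each gene, variances moderated with a trend on mean level, 2-sided p-values, and Benjamini-Hochberg correction across the 8520 genes with a threshold of 0.05. The steps were tested on simulated data. Names came from the RefSeq table of GRCm38.p6 (8429 genes matched). The members and lists were chosen with earlier results of these data known. Named genes are all measured members, called genes of the other lists or their 3 most abundant, and the 5 genes most correlated with Slamf6, of which 1 is not reported here. Correlations of deviations from group means were 0.37, 0.11 and 0.16 for same-numbered libraries, against -0.49 to 0.36 for differently numbered pairs. These ranges overlap, so they do not settle whether a number marks a pairing, and the labels do not say what a number shares. The main fit used no block, and the replicate block was an alternative. Alternatives covered the block, prior, filter, pseudocount, scaling, weights and each library left out. Protein sequences were not analysed here. Tables and figures were made with Python 3.11.15, pandas 2.3.3, Biopython 1.88 and matplotlib 3.10.9.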

Additional observations from a re-analysis of the deposited data

How the results depend on the processing

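The Slamf6 difference kept its direction and its call under all 13 alternatives that tested it, with log2 differences of 1.32 to 1.72 and adjusted p of 1.4e-05 to 0.0199. With a minimum mean log2 CPM of 4, Slamf6 itself (mean 3.85) left the table, so 0 members were called. With the replicate block 2 members were called, Slamf6 and Cd84, and leaving out 1 library gave 1 to 2, the 2 being the same genes without Ly49I+ replicate 1. The Cd244a difference changed sign without Ly49G+ replicate 2 (0.00) and without Ly49I+ replicate 1 (0.04). Over its 14 alternatives it ran from -0.08 to 0.04, with adjusted p of 0.65 to 0.987. Slamf7, Ly9, Cd48, Sh2d1a and Sh2d1b1 kept their direction and their side of the threshold in all 14 alternatives each. SLAM signalling genes called higher in Ly49I+ were 2 with the block, and 0 to 1 when 1 library was left out, the 1 being Plcg2 without Ly49I+ replicate 1. Over all genes, calls higher in Ly49G+ and in Ly49I+ were 485 and 508 with the replicate block, and 96 higher in Ly49I+ with the minimum of 4. Leaving out 1 library gave 45 to 297 and 49 to 347. The block changed no other call among the members and signalling genes. Quantile normalization, voom weights and the summed exon length were added after seeing the data. TMM scaling and a count model were not run, though whole reads could be recovered from the deposited log2 values. Reads behind Slamf6 in Ly49I+ libraries (262 to 457) are the fewest of any member.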
